A study of Mus musculus with 15 samples.

Results

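Sγ1 junctions that carry inserted bases are the subject here. They are joins between a bait end in 5′Sμ and a prey end in the Sγ1 window in which the sequenced read holds bases between the 2 alignments that belong to neither. Members were selected on the gap itself: a junction in a window of 20 kb around Sγ1 on chromosome 12 was a member when the prey alignment began on the read after a gap of at least 1 base. Members lay between positions 114562019 and 114581946 (mm9). Of 18439 junctions in that window in 10 libraries, 2936 were members, 15.9% of the total. The insertion length chose the members, so a length of at least 1 base is a definition and not a result. Just inside the threshold lay 1245 junctions with 1 inserted base, and just outside it 3854 direct joins with neither an insertion nor microhomology (MH).

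The libraries came from splenic B cells of C57BL/6 mice, stimulated with IL-4, LPS and dextran-coupled anti-IgD, which induce AID and switching to IgG1. Junctions were found by CSR-HTGTS, in which a primer in 5′Sμ is extended linearly into whatever DNA has been joined to it. By genotype label, 3 libraries were WT, 2 Shld1-/-, 3 XLF-/- and 2 Shld1-/-XLF-/-. Both genes were lost in the germline, so the mutant B cells developed without the protein, and all groups shared the strain and the stimulation. Each library is named here by its label and a number within the label.

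The genotype label and the genotype under which the study's own plots print a library's junction count were the same for 4 of the 10 libraries and different for 6. Libraries WT 1, Shld1-/- 2 and XLF-/- 3 are printed as WT. Libraries WT 2, Shld1-/- 3 and Shld1-/-XLF-/- 1 are printed as Shld1-/-. Libraries WT 3 and XLF-/- 1 are printed as XLF-/-, and XLF-/- 2 and Shld1-/-XLF-/- 3 as Shld1-/-XLF-/-. Which of the 2 assignments is right was not tested, and the genotype comparisons are given under both. No read name occurred in more than 1 library.

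Class switch recombination joins a break in Sμ to a break in a downstream switch region, both made through deamination of cytosines by AID. The ends are sealed by classical non-homologous end joining, to which XLF contributes as a partner of the ligase complex, or by alternative routes that anneal short homologies. Shieldin, the complex to which SHLD1 belongs, keeps broken ends from being trimmed back into single strands, and 53BP1 brings it to the break. Inserted bases at a switch junction can be untemplated additions or short copies of nearby DNA, and they are one of the 3 forms a junction can take, beside direct joins and MH.

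The longest insertion of each library shows what the members look like. Each line gives the last 20 aligned bait bases and the first 20 aligned prey bases in lower case, and the inserted bases between them in capitals, 5′ to 3′ as read from the bait. The number before the colon is the prey position on chromosome 12 in mm9, and each length occurred once in its library. The rows of WT 1, Shld1-/- 2, XLF-/- 3 and XLF-/- 1 carry a mapping-quality flag, so their positions are less certain.
WT 1 (printed as WT), 62 bases, 114574274: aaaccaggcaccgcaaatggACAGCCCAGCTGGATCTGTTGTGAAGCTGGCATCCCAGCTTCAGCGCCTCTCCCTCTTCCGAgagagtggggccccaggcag
Shld1-/- 2 (printed as WT), 57 bases, 114573364: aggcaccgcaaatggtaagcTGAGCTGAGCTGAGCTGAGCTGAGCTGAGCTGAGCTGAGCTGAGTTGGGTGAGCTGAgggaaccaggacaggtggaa
XLF-/- 3 (printed as WT), 85 bases, 114574386: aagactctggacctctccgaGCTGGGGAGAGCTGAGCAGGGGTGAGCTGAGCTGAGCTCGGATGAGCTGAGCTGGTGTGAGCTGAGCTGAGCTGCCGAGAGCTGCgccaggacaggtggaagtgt
WT 2 (printed as Shld1-/-), 24 bases, 114563911: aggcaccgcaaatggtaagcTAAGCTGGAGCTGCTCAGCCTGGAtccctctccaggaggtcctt
Shld1-/- 3 (printed as Shld1-/-), 29 bases, 114572097: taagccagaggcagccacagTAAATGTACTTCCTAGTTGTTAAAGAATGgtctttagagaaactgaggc
Shld1-/-XLF-/- 1 (printed as Shld1-/-), 29 bases, 114562991: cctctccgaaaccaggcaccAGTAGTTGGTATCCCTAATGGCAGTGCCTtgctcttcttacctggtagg
WT 3 (printed as XLF-/-), 28 bases, 114567950: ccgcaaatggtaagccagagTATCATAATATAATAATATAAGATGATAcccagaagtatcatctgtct
XLF-/- 1 (printed as XLF-/-), 37 bases, 114574231: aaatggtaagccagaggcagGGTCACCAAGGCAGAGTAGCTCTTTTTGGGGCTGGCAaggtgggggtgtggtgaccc
XLF-/- 2 (printed as Shld1-/-XLF-/-), 28 bases, 114569991: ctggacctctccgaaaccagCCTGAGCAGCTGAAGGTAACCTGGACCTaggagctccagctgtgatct
Shld1-/-XLF-/- 3 (printed as Shld1-/-XLF-/-), 28 bases, 114581003: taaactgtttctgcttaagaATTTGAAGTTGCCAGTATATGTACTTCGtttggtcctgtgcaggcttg

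Repeats of Sμ fill several of these insertions. The 57 bases of Shld1-/- 2 are almost wholly made of GAGCT units, the pentamer of Sμ, and share a run of 44 bases with Sμ of the GRCm38 genome. The 85 bases of XLF-/- 3, also printed as WT, mix GAGCT units with variants of them, and their longest run shared with Sμ was 20 bases. Copies of Sγ1 occur too. All 24 bases of the WT 2 insertion are found in the Sγ1 interval, and 27 of the 28 bases of the XLF-/- 2 insertion. Others had no such partner in the 2 intervals searched. The 28 bases of WT 3, which are rich in A and T, shared at most 10 bases with either interval. For the 29 bases of Shld1-/-XLF-/- 1 the longest shared run was 9. The intervals, given below, leave out Ighg1 and the DNA downstream of it, and partial matches there were not searched.

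Short insertions made up most of the members, and the next lines show a 1-base and a 3-base case from the library with the most members of each printed genotype. Among deletional rows without a mapping-quality flag, the one with the lowest position was taken for each length.
Shld1-/- 2 (printed as WT), 1 base, 114565425: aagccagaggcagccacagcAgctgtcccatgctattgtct
Shld1-/- 2 (printed as WT), 3 bases, 114569307: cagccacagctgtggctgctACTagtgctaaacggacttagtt
Shld1-/-XLF-/- 1 (printed as Shld1-/-), 1 base, 114565298: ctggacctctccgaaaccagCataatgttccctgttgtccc
Shld1-/-XLF-/- 1 (printed as Shld1-/-), 3 bases, 114569319: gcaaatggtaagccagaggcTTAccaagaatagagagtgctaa
XLF-/- 1 (printed as XLF-/-), 1 base, 114566983: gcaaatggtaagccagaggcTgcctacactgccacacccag
XLF-/- 1 (printed as XLF-/-), 3 bases, 114566423: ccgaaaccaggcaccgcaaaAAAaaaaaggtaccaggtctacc
XLF-/- 2 (printed as Shld1-/-XLF-/-), 1 base, 114565346: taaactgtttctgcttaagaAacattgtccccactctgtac
XLF-/- 2 (printed as Shld1-/-XLF-/-), 3 bases, 114574021: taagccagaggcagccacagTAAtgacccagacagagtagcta

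In all, 42.4% of members held 1 inserted base and 77.6% held 1 to 4. The median length was 2 bases, 315 members (10.7%) held 10 or more, and 18 held more than 30. Counting rows with the same prey position, strand, bait end and length within a library once left 2677 members. Rows alike in insertion and flanking bases but placed at another prey position stayed separate in this count. In WT 1, for example, the same 17-base insertion with the same flanks was placed at 114574603 and at 114574652. The number of separate events can thus be lower than 2677. Intervals below are 95% Wilson intervals, and they cover counting error only, not the spread between libraries. The junctions carry no molecular identifiers, so copies of 1 molecule can count more than once and the intervals can be too narrow. A duplicate flag marked 273 members, 2.63% to 16.7% per library, and these rows were kept in the counts and shares given here. The paper states that it removed duplicates before its own analysis.

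Inserted bases were least frequent in the libraries printed as XLF-/- or Shld1-/-XLF-/-. In the libraries printed as WT, the inserted share of Sγ1 junctions was 17.1% in WT 1 (403 of 2350), 17.3% in Shld1-/- 2 (896 of 5181) and 17.9% in XLF-/- 3 (866 of 4839). Among those printed as Shld1-/-, it was 15.5% in WT 2 (84 of 542), 14.4% in Shld1-/- 3 (127 of 880) and 17.8% in Shld1-/-XLF-/- 1 (143 of 803). The lowest values were 9.56% in WT 3 (97 of 1015) and 11.2% in XLF-/- 1 (215 of 1917), both printed as XLF-/-, with 10.9% in XLF-/- 2 (67 of 612) and 12.7% in Shld1-/-XLF-/- 3 (38 of 300), both printed as Shld1-/-XLF-/-. No library printed without XLF reached the share of any library printed with it.

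**Figure D1:**
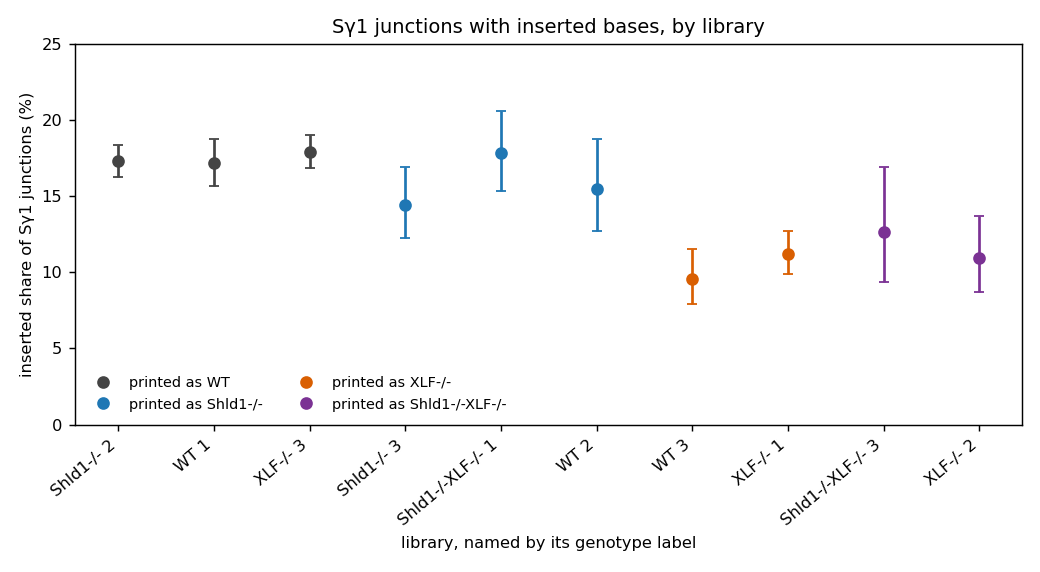
Inserted share of Sγ1 junctions (percent) in each of 10 libraries, named on the horizontal axis by label and coloured by printed genotype; bars are 95% Wilson intervals. The 4 libraries printed as XLF-/- or Shld1-/-XLF-/- lie between 9.56% and 12.7%, and the other 6 between 14.4% and 17.9%.

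Averaged by printed genotype, libraries of WT gave 17.4% ± 0.396 (SD, n = 3) and those of Shld1-/- gave 15.9% ± 1.73 (SD, n = 3). Without XLF, the mean was 10.4% ± 1.17 (SD, n = 2) in XLF-/- libraries and 11.8% ± 1.22 (SD, n = 2) in Shld1-/-XLF-/- ones. XLF loss lowered the share by a mean of -5.58 percentage points within SHLD1 genotypes (exact two-sided permutation test, p = 0.01, the smallest this design allows; 0.0286 after Benjamini-Hochberg adjustment over 12 comparisons). With 1-base insertions counted as not inserted, the difference was -2.40 points (exact permutation test, adjusted p = 0.05), which is not below the threshold of 0.05. SHLD1 loss changed the printed means by -0.06 points (exact permutation test, adjusted p = 0.95). By label, the differences were 1.84 points for SHLD1 loss (exact permutation test, adjusted p = 0.7) and -0.67 points for XLF loss (exact permutation test, adjusted p = 0.783), and neither passed.

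The 3 forms of junction did not shift alike. MH took 56.6% to 57.8% of Sγ1 junctions in the libraries printed as WT, 70.5% to 71.7% in those printed as Shld1-/-, 74.0% and 77.3% in those printed as XLF-/-, and 84.2% and 82.3% in those printed as Shld1-/-XLF-/-. Direct joins took 25.1% to 25.5%, 10.5% to 14.0%, 16.5% and 11.5%, and 4.90% and 5.00%, in the same order. Among junctions without MH, the inserted ones were thus 40.5% to 41.3% in the libraries printed as WT, 51.0% to 63.0% in those printed as Shld1-/-, 36.7% and 49.3% in those printed as XLF-/-, and 69.1% and 71.7% in those printed as Shld1-/-XLF-/-. SHLD1 loss raised this share by 21.0 points under the printed genotypes (exact permutation test, adjusted p = 0.0286), and all libraries printed as lacking SHLD1 lay above all others. XLF loss gave a difference of 8.56 points (exact permutation test, adjusted p = 0.15). By label, the differences were 8.29 points for SHLD1 loss and 15.8 points for XLF loss (exact permutation tests, adjusted p = 0.7 for both).

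The libraries also differed in insertion length. Insertions of 1 base were 46.4%, 46.8% and 48.6% of members in the libraries printed as WT. They were 23.8% in WT 2, 37.8% in Shld1-/- 3 and 27.3% in Shld1-/-XLF-/- 1, the libraries printed as Shld1-/-. In WT 3 and XLF-/- 1, printed as XLF-/-, they were 25.8% and 24.2%, and in XLF-/- 2 and Shld1-/-XLF-/- 3 they were 29.9% and 36.8%. The 3 libraries printed as WT thus lay above all others. The test within the genotypes of the other gene did not pass for XLF loss, with -9.28 points (exact permutation test, adjusted p = 0.2), or for SHLD1 loss, with -4.63 points (exact permutation test, adjusted p = 0.42). By label, the differences of the 1-base share were 4.06 points for SHLD1 loss and -4.0 points for XLF loss (exact permutation tests, adjusted p = 0.7 for both).

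Insertions of 5 bases or more ran the other way. They were 17.6% to 19.6% of members in the libraries printed as WT and 23.8% to 31.5% in those printed as Shld1-/-. In those printed as XLF-/- they were 42.3% and 36.3%, and in those printed as Shld1-/-XLF-/- 37.3% and 31.6%. XLF loss raised this share by 13.9 points (exact permutation test, adjusted p = 0.0286). Without rows flagged for mapping quality the difference was 12.97 points (exact permutation test, adjusted p = 0.06). Leaving out any 1 of the libraries printed as WT also ended the call, with 13.7 points without WT 1, 14.2 without Shld1-/- 2 and 13.7 without XLF-/- 3. SHLD1 loss gave a difference of 2.20 points (exact permutation test, adjusted p = 0.618). By label, the differences of the 5-base share were -1.64 points for SHLD1 loss and 5.26 points for XLF loss (exact permutation tests, adjusted p = 0.783 and 0.7).

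Counted against all Sγ1 junctions, the libraries printed as WT held the most 1-base insertions and the fewest of 5 bases or more. Of all Sγ1 junctions, 1-base insertions were 7.96%, 8.09% and 8.70% in the libraries printed as WT and 2.46% to 5.45% in the other 7. Insertions of 5 bases or more were 3.02% to 3.40% in the libraries printed as WT, 3.69% to 5.60% in those printed as Shld1-/-, and 4.0% to 4.08% in the 4 printed as XLF-/- or Shld1-/-XLF-/-. Tests of these shares were added after the values were seen, for 6 comparisons. With XLF loss, 1-base insertions differed by -3.18 points and insertions of 2 to 4 bases by -2.64 points (exact permutation tests, adjusted p = 0.06 for both). The difference for insertions of 5 bases or more was 0.23 points (exact permutation test, adjusted p = 0.63). With SHLD1 loss, the differences were -1.10, 0.44 and 0.60 points for insertions of 1 base, 2 to 4 bases and 5 bases or more (exact permutation tests, adjusted p = 0.475, 0.52 and 0.133). By label, in the same order, they were 0.97, 0.31 and 0.56 points for SHLD1 loss (exact permutation tests, adjusted p = 0.79, 0.79 and 0.78). For XLF loss by label they were -0.91, -0.42 and 0.66 points (exact permutation tests, adjusted p = 0.79, 0.79 and 0.78). None of the 6 passed after adjustment under either grouping.

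**Figure D2:**
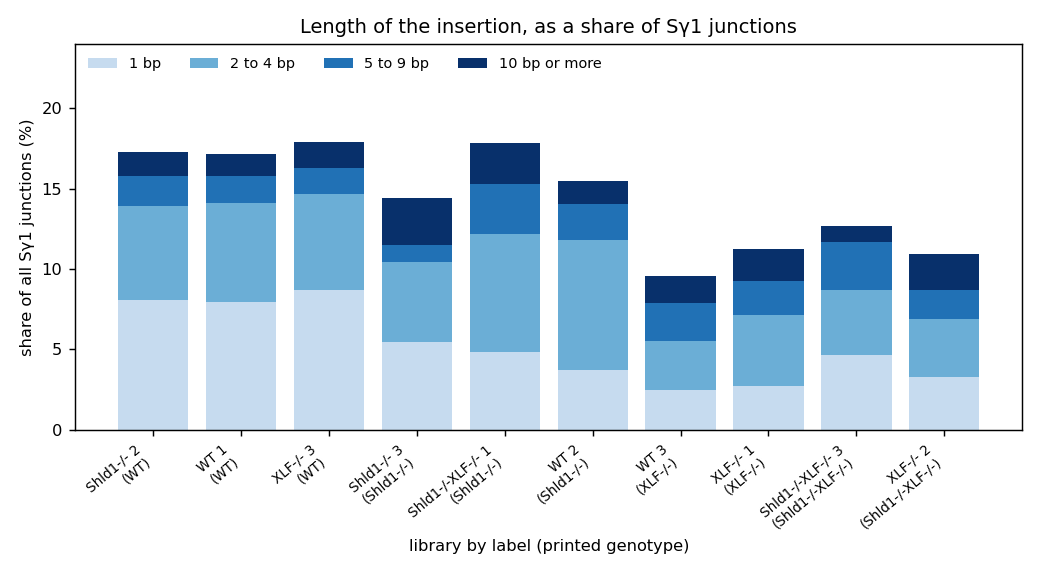
Insertions of 1, 2 to 4, 5 to 9 and 10 or more bases, stacked, as a share of all Sγ1 junctions (percent) in each library, with the printed genotype in parentheses. The 1-base segment is 7.96% to 8.70% in the 3 libraries printed as WT and at most 5.45% elsewhere.

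Most members were deletional joins, the productive orientation in which prey and bait lie on the same strand. In all, 2683 members were deletional and 253 inversional. The inversional share of members was 4.22%, 3.35% and 4.04% in WT 1, Shld1-/- 2 and XLF-/- 3, the libraries printed as WT. It was 17.9%, 17.3% and 26.6% in WT 2, Shld1-/- 3 and Shld1-/-XLF-/- 1, and 16.5% and 17.7% in WT 3 and XLF-/- 1. In XLF-/- 2 and Shld1-/-XLF-/- 3, printed as Shld1-/-XLF-/-, it reached 35.8% and 47.4%, above every other library. Under the printed genotypes, inversions among members rose by 20.6 points with SHLD1 loss and by 17.1 points with XLF loss (exact permutation tests, adjusted p = 0.0286 for both). Without strata, the XLF difference did not pass (exact permutation test, adjusted p = 0.124). By label, the inversional share differed by 7.64 points with SHLD1 loss and 16.5 points with XLF loss (exact permutation tests, adjusted p = 0.7 for both).

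Sγ1 junctions without insertions were also inverted more often in libraries printed with a mutant genotype. Their inversional share was 4.46% to 5.34% in the libraries printed as WT, 21.0% to 30.9% in those printed as Shld1-/-, 8.71% and 15.2% in those printed as XLF-/-, and 30.5% and 37.4% in those printed as Shld1-/-XLF-/-. Compared within a library, the inserted share of inversional junctions minus that of deletional ones averaged -0.52 points over the 10 libraries (SD 4.73; exact sign-flip permutation test, adjusted p = 0.857). It was higher in 4 libraries and lower in 6.

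Those 4 libraries were the ones printed without XLF. Of inversional junctions, 16.7% held an insertion in WT 3 against 8.81% of deletional ones. The pair of values was 12.8% and 10.9% in XLF-/- 1, 12.6% and 10.2% in XLF-/- 2, and 15.5% and 10.9% in Shld1-/-XLF-/- 3. In the 6 libraries printed with XLF, inversional junctions held 8.63% to 16.1% and deletional ones 16.01% to 18.5%, and the inversional value was the lower in each. The numbers are small, with 15 to 38 inserted inversional junctions per library, and the 95% intervals of the inversional shares overlapped between all 10. The difference between printed XLF genotypes, tested after it was seen, was 7.89 points (exact permutation test, p = 0.01, and 0.0583 adjusted over 14 such tests). By label, it was 2.95 points (exact permutation test, adjusted p = 0.648).

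Position was taken relative to core Sγ1, the 8 kb of the window in which most switch breaks fall, with 7 kb of the window downstream of it and 5 kb upstream. In all, 2755 members lay within the core, at positions 114569010 to 114576998, and 181 outside it, 134 on its downstream side and 47 on its upstream side. Outside-core members were 0.744%, 0.781% and 0.577% of members in WT 1, Shld1-/- 2 and XLF-/- 3, printed as WT. They were 19.0%, 25.2% and 17.5% in WT 2, Shld1-/- 3 and Shld1-/-XLF-/- 1, and 12.4% and 12.1% in WT 3 and XLF-/- 1. In XLF-/- 2 and Shld1-/-XLF-/- 3 they were 50.7% and 55.3%, more than in any other library. Under the printed genotypes this share rose by 30.3 points with SHLD1 loss and by 21.98 points with XLF loss (exact permutation tests, adjusted p = 0.0286 for both). Without strata, the XLF difference did not pass (exact permutation test, adjusted p = 0.139). By label, the outside-core share differed by 8.75 points for SHLD1 loss and 16.9 points for XLF loss (exact permutation tests, adjusted p = 0.7 for both).

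Many downstream members lay in the Ighg1 gene itself, which encodes the IgG1 constant region. The 30 prey bases next to the insertion were matched exactly to GRCm38, where Ighg1 lies on the minus strand at chr12:113325240-113330523. Of the 134 members downstream of the core, 41 matched an exon of Ighg1, 46 an intron, 14 the DNA beyond its far end and 7 the DNA before it, and 26 had no exact match. Of the 2755 members in the core, 2125 matched DNA upstream of Ighg1 and none matched the gene, while 629 had no exact match. The core lies upstream of Ighg1, and the gene covers much of the 7 kb downstream of the core, so the layout of the window bears on these counts. Junctions without insertions were not placed in this way, and whether members differ from them was not tested.

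**Figure D3:**
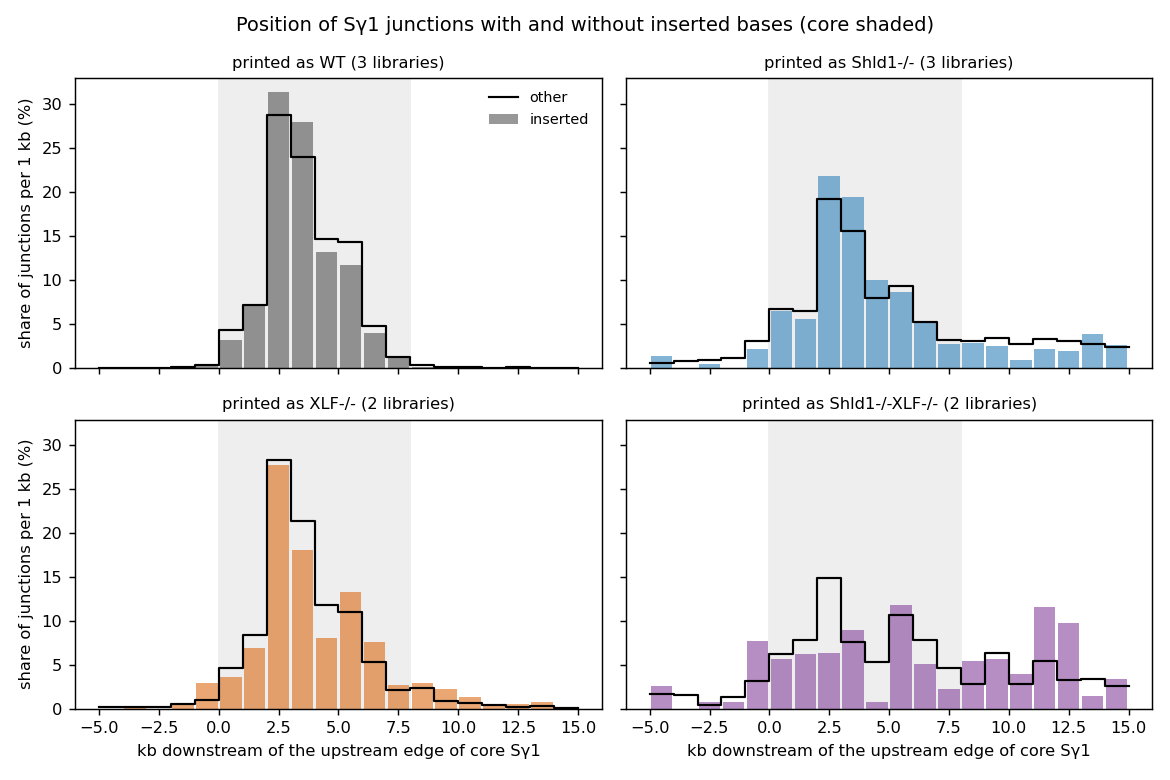
Share of Sγ1 junctions per 1-kb bin (percent), averaged over the libraries of each printed genotype, against distance in kb downstream of the upstream edge of core Sγ1; bars are junctions with inserted bases, the black line those without, and the core is shaded. Outside-core members are at most 0.781% in the libraries printed as WT and 50.7% and 55.3% in those printed as Shld1-/-XLF-/-.

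Compared with other junctions, members lay outside the core more often in the 4 libraries printed without XLF and less often in the other 6. Junctions without insertions lay outside the core in 0.822% to 1.10% of cases in the libraries printed as WT, in 22.5% to 29.3% in those printed as Shld1-/-, in 5.77% and 8.46% in those printed as XLF-/-, and in 35.0% and 34.7% in those printed as Shld1-/-XLF-/-. Over all 10 libraries, the inserted share outside the core minus that within it averaged 0.37 points (SD 6.71; exact sign-flip permutation test, adjusted p = 0.863), higher in 4 libraries and lower in 6. In WT 3, 18.5% of outside-core junctions held an insertion (12 of 65) against 8.95% of core junctions. The pair was 15.3% and 10.8% in XLF-/- 1, 15.1% and 8.53% in XLF-/- 2, and 18.8% and 9.04% in Shld1-/-XLF-/- 3. In the other 6 libraries, outside-core junctions held 10.4% to 15.8% and core junctions 15.2% to 19.97%. The difference between printed XLF genotypes was 12.01 points (exact permutation test, p = 0.01, and 0.0583 adjusted over 14 tests). This comparison was chosen after its values were seen, and the libraries printed as WT held only 3 to 7 outside-core members each. By label, it was 1.77 points (exact permutation test, adjusted p = 0.867).

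**Figure D4:**
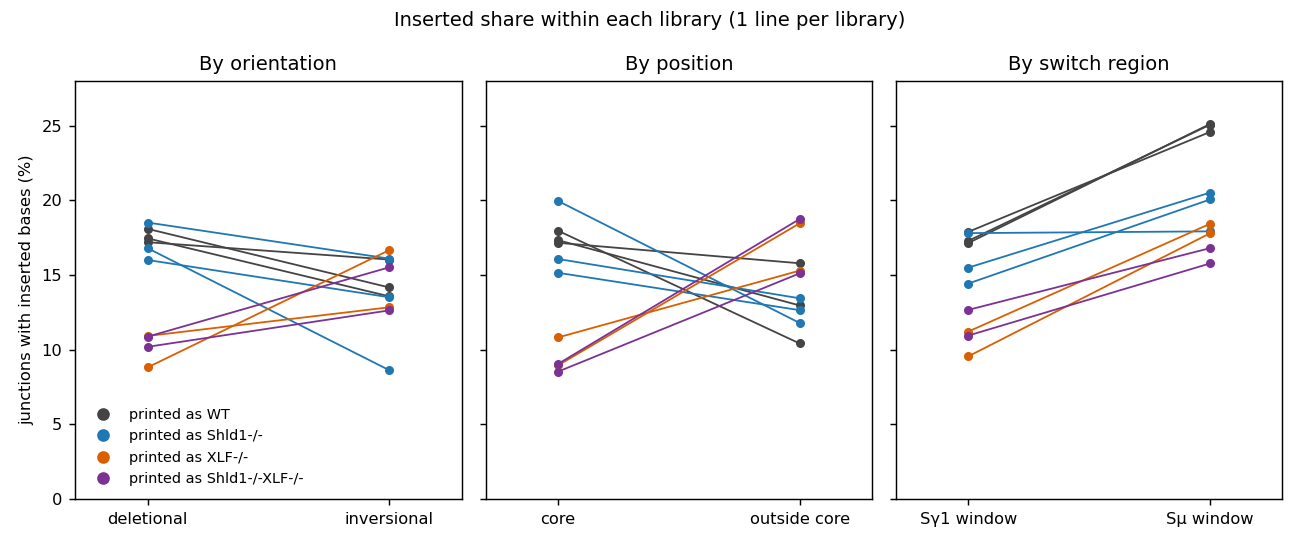
Share of junctions with inserted bases (percent) for deletional and inversional Sγ1 junctions, for core and outside-core Sγ1 junctions, and for the Sγ1 and Sμ windows, with 1 line per library coloured by printed genotype. Lines of the 4 libraries printed without XLF rise in the orientation and position panels and those of the other 6 fall. Every line rises from the Sγ1 window to the Sμ window.

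Insertions were rarer in the Sγ1 window than in a window of the same width around Sμ, the switch region of the bait itself. The Sμ window is wider than Sμ, so it can hold joins to flanking DNA as well as joins within Sμ. The 2 kinds were not separated, and how far this bears on the difference was not tested. The Sμ window held an insertion in 24.6% to 25.1% of junctions in the libraries printed as WT, 17.9% to 20.5% in those printed as Shld1-/-, 17.8% and 18.4% in those printed as XLF-/-, and 15.8% and 16.8% in those printed as Shld1-/-XLF-/-. Sγ1 was lower in 10 of 10 libraries, by a mean of -5.76 points (SD 2.45; exact sign-flip permutation test, adjusted p = 0.00684). The smallest difference was -0.12 points, in Shld1-/-XLF-/- 1, and the largest -8.24 points, in WT 3. Without rows flagged for mapping quality the mean was -1.96 points (exact sign-flip permutation test, adjusted p = 0.0938) and no longer passed. Rows with that flag made up 10.4% to 47.6% of members per library.

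The inserted bases were poorer in G and C than the DNA on either side. Over each library, G and C made up 37.8% to 50.7% of inserted bases, against 51.9% to 55.8% of the 10 aligned bases on each side. The difference was negative in 10 of 10 libraries, with a mean of -8.66 points (SD 4.05; exact sign-flip permutation test, adjusted p = 0.00684). It ranged from -4.97 points in XLF-/- 1 to -17.7 points in WT 2. A base that matched the next base of the bait or prey reference would be aligned and not counted as inserted. The definition of a member thus bears on this difference, most of all for short insertions. How much of the difference it accounts for was not tested.

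Pooled over all members, most of them from the libraries printed as WT, shorter insertions held less G and C. In the pool, G and C made up 34.0% of 1-base insertions, 39.6% of the bases of 2-to-4-base insertions, 45.8% of those of 5 to 9 bases and 54.7% of those of 10 or more, where the flanking bases held 56.9%. The 3 libraries printed as WT kept this order of the 4 length classes, and 5 of the other 7 did not. In XLF-/- 1, G and C made up 46.2% of 1-base insertions and 38.9% of the bases of 2-to-4-base insertions. Single inserted bases were A in 34.3% of cases, T in 31.7%, C in 18.0% and G in 15.98%. The A and T share of single bases was 65.3% to 66.6% in the libraries printed as WT, with 187 to 421 insertions each. It ranged from 53.8% (XLF-/- 1, 52 insertions) to 84.6% (Shld1-/-XLF-/- 1, 39 insertions) in the others. Of 529 insertions of 2 bases, AT was the most frequent with 68 and TT came next with 63, and of 337 insertions of 3 bases ACT was the most frequent with 34. A base next to the break that differs from the reference is left out of the alignment and is then counted as inserted, and the 2 cannot be told apart in these tables.

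Long insertions held copies of switch sequence. GAGCT, searched on both strands, occurred in 114 of the 315 insertions of 10 or more bases (36.2%, 95% interval 31.1% to 41.6%). Rows with the same insertion recur among these 315, so the interval can be too narrow. It occurred in 9.52% of the aligned prey stretches of the same length next to them and in 0.635% of the bait stretches. Nearly all bait stretches lie close to the same primer in 5′Sμ and read much the same DNA, so they give no background rate. The related pentamer GGGGT, which can stand beside GAGCT in the same insertion and was searched in the same way, occurred in 18.7% of the insertions, in 1.27% of the prey stretches and in none of the bait stretches. In 98 of the insertions GAGCT stood as written when read from the bait, and in 20 on the other strand.

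Each of the 185 insertions of 15 or more bases was compared with the 6000 bases upstream of Ighm and the 20000 bases upstream of Ighg1 in GRCm38. An insertion was assigned to the interval that shared its longest exact run, where that run was at least 12 bases. Sμ was assigned to 106 (57.3%), Sγ1 to 39 (21.1%) and neither to 40 (21.6%). The Sμ runs read in the direction of Igh transcription in 98 of 106 and the Sγ1 runs in 25 of 39. By printed genotype, Sμ was assigned to 69.8% of 116 long insertions for WT, 31.0% of 29 for Shld1-/-, 44.8% of 29 for XLF-/- and 27.3% of 11 for Shld1-/-XLF-/-. By library, the shares were 77.8%, 63.3% and 73.5% for those printed as WT. The numbers were 1 of 2, 7 of 14 and 1 of 13 for WT 2, Shld1-/- 3 and Shld1-/-XLF-/- 1, and the shares 45.5% and 44.4% for WT 3 and XLF-/- 1. For XLF-/- 2 and Shld1-/-XLF-/- 3 they were 1 of 8 and 2 of 3. These shares were not tested, since 5 of the 10 libraries held 13 or fewer such insertions and rows with the same insertion recur within a library. The 2 intervals also leave out Ighg1 and the DNA downstream of it. Many members downstream of the core lay there, and outside-core members were more frequent in libraries printed with a mutant genotype. The choice of intervals thus bears on these shares, and how far was not tested.

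Of the 110 insertions of 20 or more bases, 42 occurred whole somewhere in GRCm38, and 38 of these on chromosome 12. The other 68 had no full match, which can include copies with a single differing base and copies joined end to end.

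**Figure D5:**
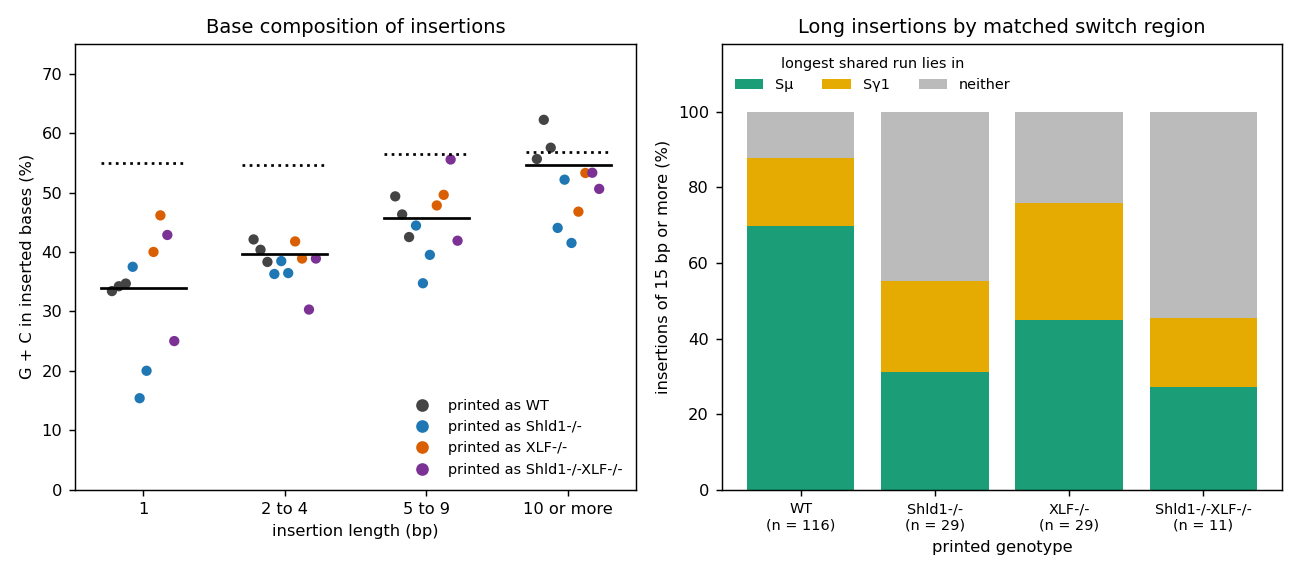
Left, G and C share of inserted bases (percent) by insertion length, with 1 point per library coloured by printed genotype; the solid line is the share over all members, most of which come from the libraries printed as WT, and the dotted line that of the 10 aligned bases on each side. Right, insertions of 15 bases or more by the switch region that shares their longest run of at least 12 bases, pooled by printed genotype. Ighg1 and the DNA downstream of it were not searched. The Sμ share is 69.8% for WT and 27.3% for Shld1-/-XLF-/-.

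Few members fell on a spot shared by 3 or more libraries. Within libraries, 444 members lay in 190 groups of rows with the same position, strand, bait end and inserted bases. The largest group held 6 rows. Recurrence of junctions without insertions was not counted. At 6 combinations of position, strand and insertion length, members occurred in 3 libraries or more, and these held 22 members in all. In 5 of the 6, the insertion was 1 base, and in 5 of the 6 the inserted letters differed between rows. All 6 lay in core Sγ1. The first line below shows the first of them, where the inserted base was A or T, and the second the one with 4 bases, where GGGC, GGGT and TGGC were found.
Recurrent position, 1 base, 114573418: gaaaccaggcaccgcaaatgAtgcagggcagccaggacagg
Recurrent position, 4 bases, 114573752: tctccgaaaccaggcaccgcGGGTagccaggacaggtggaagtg

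Bait ends and mapping flags gave no difference between members and other junctions that passed the test. The median distance from the usual bait start to the bait end was 62 to 70.5 bp for members and 62 to 67 bp for other Sγ1 junctions, and the difference averaged 2.15 bp (SD 3.25; exact sign-flip permutation test, adjusted p = 0.191). The share of rows flagged for mapping quality differed between members and other junctions by a mean of 1.96 points (SD 5.65; exact sign-flip permutation test, adjusted p = 0.421). In 1-base insertions, the share among inversional members minus that among deletional members averaged 5.96 points (SD 11.5; exact sign-flip permutation test, adjusted p = 0.215).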

How the data were processed

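CSR-HTGTS junctions of stimulated splenic B cells were analysed in 10 libraries. The authors aligned reads with Bowtie2 to mm9, per the labels' processing notes, and deposited 1 row per junction with prey and bait positions, strands, read positions, the read and filter flags, without normalization. Of 15 libraries, 2 with only MH lengths and 3 of the 129s strain, whose coordinates differ, entered no comparison. Insertion length is the count of read bases between the bait and prey alignments. Libraries held 1590 to 8531 junctions, and 38 to 896 members. The members, windows and lists were chosen with earlier results of these data known.

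Exact permutation tests, two-sided, compared the libraries' shares within genotypes of the other gene, adjusted by Benjamini-Hochberg over 12 comparisons, and by exact sign-flip tests of 7 within-library differences. Grouping was by genotype label, with the printed genotype as an alternative. The p-values measure the spread between libraries; nothing used here ties a library to a mouse. Named junctions are the longest insertion of each library and those in 3 or more libraries. No mm9 genome was used, and sequence matches are to GRCm38 (GENCODE vM21 genes). Scripts (Python 3.11.15, numpy 2.4.6, pandas 2.3.3, scipy 1.17.1) were tested on simulated junctions.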

Additional observations from a re-analysis of the deposited data

Results flagged for a closer look

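The WT libraries of the 129s strain, which entered no comparison, also held inserted junctions: 18.9%, 20.3% and 18.8% of their chromosome 12 junctions, against 13.9% to 20.5% in the 10 C57BL/6 libraries counted the same way. These shares were not tested against those of the other libraries.

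The excess of insertions in inversional over deletional junctions differed by 7.89 points between the libraries printed without and with XLF, and the excess outside over within core Sγ1 by 12.01 points. In both, the 4 libraries printed without XLF lay above 0 and the other 6 below it. The exact permutation tests gave p = 0.01 each, and 0.0583 after adjustment over 14 tests. By label, the differences were 2.95 and 1.77 points (exact permutation tests, adjusted p = 0.648 and 0.867), with both signs within each group.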

How the results depend on the processing

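By label, none of the 12 comparisons passed under any setting that kept the labels. With the printed genotypes, the SHLD1 difference turned to -0.056 points for the inserted share, -4.63 for the 1-base share and 2.20 for the 5-base share. The same grouping took 7 differences past the threshold: -5.58 (inserted share), 13.9 (5-base share), 17.1 (inversional share) and 21.98 (outside-core share) for XLF loss, and 20.6 (inversional), 30.3 (outside core) and 21.0 (inserted among junctions without MH) for SHLD1 loss. By label, counting insertions of 2 bases or more turned the XLF difference of the inserted share to 0.24 and the SHLD1 difference of the 5-base share to 0.79. Leaving out each library in turn gave, by label, -4.79 to 1.96 for the SHLD1 difference of the 5-base share, -1.96 to 0.62 for the XLF difference of the inserted share and -0.69 to 18.2 for the SHLD1 difference of the outside-core share.

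For printed genotypes, chosen after seeing the data as a grouping to vary in full, the SHLD1 difference of the inserted share turned to 0.47 without rows flagged for mapping quality, 1.04 with insertions of 2 bases or more and 0.024 without insertions of more than 30 bases, and ranged from -0.53 to 0.37 over the libraries left out. Without strata, the XLF differences of 17.1 (inversional) and 21.98 (outside core) no longer passed. The XLF difference of the 5-base share was 12.97 without mapping-quality rows and 12.4 to 15.4 over libraries left out. That of the inserted share was -2.40 with insertions of 2 bases or more. That of the inserted share among junctions without MH passed at 11.9 without mapping-quality rows and 9.25 with insertions of 2 bases or more, and ranged from 5.42 to 11.7 over libraries left out. Within the core, the SHLD1 difference of the 5-base share was -2.42, and, as a share of all Sγ1 junctions, -0.27 for SHLD1 and -0.33 for XLF loss. The SHLD1 difference of 1-base insertions per Sγ1 junction was 0.97 by label. The printed XLF differences in excess ranged over libraries left out from 6.41 to 9.38 for orientation and from 10.7 to 13.3 for position, and passed only without Shld1-/- 3.

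Within libraries, the difference of the Sγ1 window from the Sμ window was -1.96 without mapping-quality rows. The excess outside the core was -0.053 with insertions of 2 bases or more and -0.91 with a wider core, and -0.67 to 1.32 over libraries left out, and that of inversional junctions -1.45 to 0.33. The causes were not tested. No fit blocked by repeat was run. The labels carry no replicate numbers, and the repeat numbers in the study's figures were not used. The outside-core and inversional values rest on 3 to 34 and 15 to 38 inserted junctions per library.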
